A study of Arabidopsis thaliana with 12 samples.

Results

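The nitrate efflux transporter cluster is a run of 7 related genes on chromosome 3 of Arabidopsis thaliana: AT3G45650, AT3G45660, AT3G45680, AT3G45690, AT3G45700, AT3G45710 and AT3G45720. The genes were taken by locus code, and a gene counted as measured where a probe set was listed with that locus alone. Of the 7 genes, 5 had such a probe set, among 13334 genes of the array that did. AT3G45650 (NAXT1) and AT3G45660 had none and share a probe set that is listed with both. The run was chosen by its log2 signals in all 4 groups of these arrays, so the levels and differences of its genes are given as a description, with no p-value.

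These genes belong to the NRT1/PTR family (NPF), membrane proteins that move nitrate, chloride, peptides, hormones or glucosinolates. NAXT1, the gene that gave the run its name, encodes a plasma membrane transporter that lets nitrate out of root cells. Transport out of a cell matters in the root because ions must leave the cells around the xylem to travel to the shoot. AT3G45680 is known as a transporter of the root stele that passes nitrate towards the shoot, AT3G45700 as a stele protein that loads chloride into the xylem, and AT3G45710 as a protein of the root cortex through which chloride leaves the root. No role is given here for AT3G45660, AT3G45690 and AT3G45720.

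Total RNA of whole seedlings was hybridised to 12 one-colour Affymetrix arrays, 3 in each of 4 groups. The groups were arf2-6 seedlings with IAA (arf2-6_IAA), arf2-6 seedlings with the solvent (arf2-6_control), Columbia wild-type seedlings with IAA (WT_IAA) and Columbia wild-type seedlings with the solvent (WT_control). The arf2-6 line carries a mutant allele of ARF2, a DNA-binding auxin response factor, and the labels give no further description of the allele. Seedlings of all groups were cultured for 7 days in shaken liquid Murashige and Skoog medium with 1.5% sucrose, with 16 h of light and 8 h of dark, and then held for 2 h at 24 °C with 5 µM IAA (indole-3-acetic acid, a natural auxin) or ethanol. Since the labels do not describe the replicates as separate cultures, a p-value here reflects spread among these samples that may be technical. In RNA from whole seedlings, fewer cells of a type and less RNA per cell cannot be told apart.

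Values are deposited log2 signals, and the lowest value on any array is 5.64 (a signal of 50), where 42.5 to 43.2% of the probe sets of an array lay. Array medians ran from 6.16 to 6.22, and the number of arrays limits the precision. No probe set was listed with ARF2, so its transcript was not analysed here and did not check the genotype labels. All 5 of 5 auxin-induced genes with a probe set rose with IAA in both genotypes, where 3.75% of all tested probe sets rose in arf2-6 and 4.64% in WT. For example GH3.3, which conjugates auxin to amino acids, had a log2 difference of 5.90 in arf2-6 and 5.78 in WT. These genes were listed with earlier results of these data known. Leaf markers (3 of 6 with a probe set), root hair markers (2 of 8) and root cortex and endodermis markers (2 of 7) were measured above the lowest value. Among control arrays, WT_control 3 and arf2-6_control 2 departed from their group means in similar ways over the tested probe sets (r = 0.633), so the differences of the 3 tested cluster genes that use them are also given without both.

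Of the 5 measured genes, 3 lay above the lowest value on at least 1 array and entered the fit over 14215 probe sets: AT3G45680, AT3G45700 and AT3G45710. AT3G45690 and AT3G45720 were at no point above the lowest value on the 12 arrays, as held for 8531 probe sets (37.5%) of the array, and they were not tested. The 3 genes above it showed different patterns. AT3G45700 was near or at the lowest value on every array with IAA in both genotypes, AT3G45710 was lower in arf2-6 than in WT with and without IAA, and AT3G45680 left the lowest value on 4 control arrays, by little on 3 of them.

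**Figure D1:**
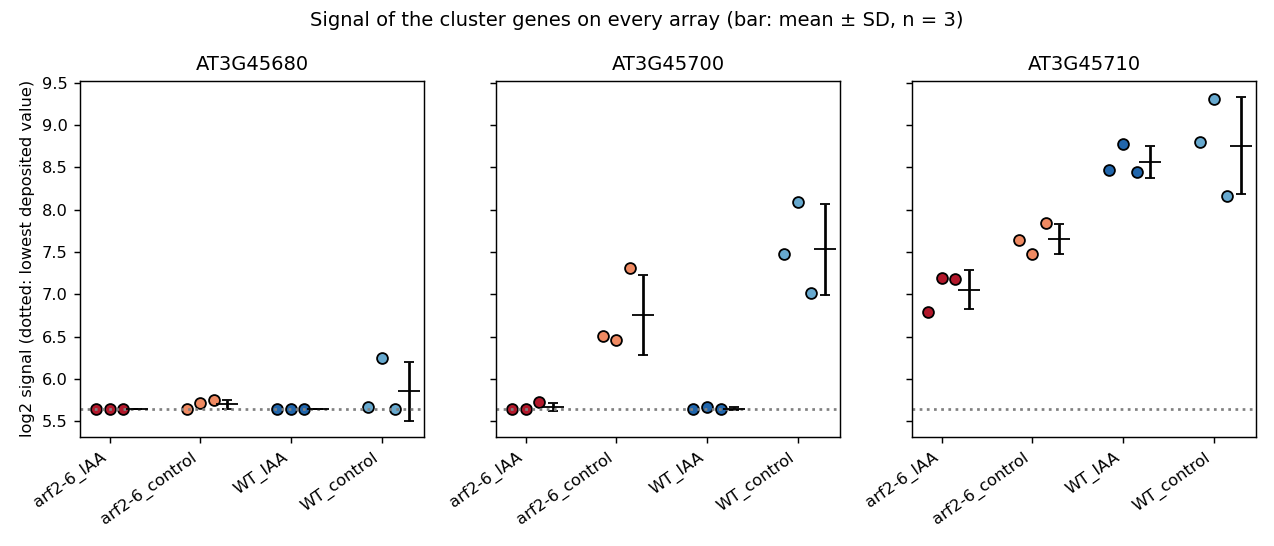
Log2 signal (vertical axis) of AT3G45680, AT3G45700 and AT3G45710 on each of the 12 arrays, by group, with points for arrays, bars for mean ± SD (n = 3) and a dotted line at the lowest deposited value of 5.64. AT3G45700 sits at 5.64 to 5.73 on the 6 IAA arrays and at 6.46 to 8.09 on the 6 control arrays, and AT3G45710 at 6.79 to 7.84 on the 6 arf2-6 arrays and at 8.17 to 9.31 on the 6 WT arrays.

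AT3G45700, the xylem chloride transporter, gave log2 signals of 5.64, 5.64 and 5.73 in arf2-6_IAA, against 6.51, 6.46 and 7.31 in arf2-6_control. In WT_IAA it gave 5.64, 5.67 and 5.64, against 7.48, 8.09 and 7.02 in WT_control. With IAA the gene was thus at the lowest value on 2 of 3 arrays in each genotype, and its IAA and control arrays did not overlap in either.

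The group means of AT3G45700 were 5.67 ± 0.05 in arf2-6_IAA and 6.76 ± 0.47 in arf2-6_control (SD, n = 3 each), a log2 difference of -1.09 (SE 0.26). This is at least 2.12-fold lower with IAA, with 1 of 3 IAA arrays above the lowest value. In the wild type the means were 5.65 ± 0.02 in WT_IAA and 7.53 ± 0.54 in WT_control, a log2 difference of -1.88 (SE 0.26), or at least 3.67-fold lower, again with 1 of 3 IAA arrays above the lowest value. Without the 2 control arrays that stood apart, the fitted log2 differences were -1.24 in arf2-6 and -2.13 in WT. Over both genotypes the 6 IAA arrays lay between 5.64 and 5.73 and the 6 control arrays between 6.46 and 8.09. Such a gap, with every IAA array below every control array, held for 3.62% of all tested probe sets.

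AT3G45700 was 1 of 3 cluster genes called lower with IAA in arf2-6 at an adjusted p under 0.05, where 4.76% of all tested probe sets were called lower. It was also 1 of 3 called lower with IAA in WT, where 3.76% were. The run was chosen by these contrasts, so nothing is read from the counts or from how often a call held. The call in WT held in 21 of 21 other processing settings. The call in arf2-6 held in 14 of 21. It was lost without arf2-6_control 3 (log2 difference -0.81), without arf2-6_IAA 1 or arf2-6_IAA 2 (-1.07 each) and without arf2-6_IAA 3 (-1.12), as well as with no filter on dim probe sets and with only the groups compared in the fit (-1.09 in both). With the lowest signal raised to 100, the differences shrank to -0.22 in arf2-6, where the call was lost, and to -0.89 in WT.

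Genes listed as root cortex and endodermis markers are set beside these values. AT3G45700 is known as a stele protein, so they do not mark its own tissue. Whether they measure root RNA in whole seedlings was not tested. The 2 measured markers, AT1G62500 and AT1G09750, had a summed signal of 1774 to 1883 in arf2-6_IAA and 2176 to 2516 in arf2-6_control. In WT_IAA the sum ran from 1151 to 2081, against 1670 to 2790 in WT_control. These sums did not overlap between IAA and control in arf2-6, and did in WT. AT1G09750, which made up most of the sum, had log2 differences with IAA of -0.33 in arf2-6 and -0.55 in WT (SE 0.24 each). Neither marker was called for IAA by limma in either genotype. The nearest was AT1G62500 in WT, with a log2 difference of -0.66 (SE 0.20, adjusted p = 0.0706), which passed without arf2-6_control 1 (adjusted p = 0.0399). With replicate number added to the limma fit, AT1G62500 was called lower with IAA in arf2-6 (adjusted p = 0.0249) and in WT (0.00609). The part of these markers in the AT3G45700 result was not tested.

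The genotypes overlapped on AT3G45700. In controls its signals ran from 6.46 to 7.31 in arf2-6 and from 7.02 to 8.09 in WT, which overlap. The log2 difference was -0.77 (SE 0.26), or -0.88 without both control arrays that stood apart. Leaving out WT_control 2 alone made the log2 difference -0.49. The SE pools the spread of all groups, and the IAA groups had little (SD 0.05 in arf2-6_IAA and 0.02 in WT_IAA). The SDs of the groups compared were 0.47 in arf2-6_control and 0.54 in WT_control, so the SE understates their spread. With IAA both genotypes were at or near the lowest value, so no difference is given. The order of the group means was therefore WT_control, then arf2-6_control with overlapping arrays, then both IAA groups together at the bottom. The difference between the IAA effects (arf2-6 minus WT) was 0.79 (SE 0.36) as fitted, 0.90 without both control arrays that stood apart and 0.51 without WT_control 2. It rests on IAA groups at or near the lowest value in both genotypes and is no exact size.

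AT3G45710, the chloride efflux protein of the root cortex, gave 6.79, 7.20 and 7.18 in arf2-6_IAA, against 8.46, 8.78 and 8.44 in WT_IAA. In controls it gave 7.64, 7.48 and 7.84 in arf2-6_control, against 8.80, 9.31 and 8.17 in WT_control. Each arf2-6 array lay below each WT array of the same treatment, and also below each WT array of the other one.

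With IAA the means of AT3G45710 were 7.06 ± 0.23 in arf2-6_IAA and 8.56 ± 0.19 in WT_IAA (SD, n = 3 each), a log2 difference of -1.50 (SE 0.24), or 2.84-fold lower. In controls they were 7.65 ± 0.18 in arf2-6_control and 8.76 ± 0.57 in WT_control, a log2 difference of -1.10 (SE 0.24), or 2.15-fold lower. The 6 arf2-6 arrays ran from 6.79 to 7.84 and the 6 WT arrays from 8.17 to 9.31. All arf2-6 arrays lay below all WT arrays for 2.18% of the tested probe sets.

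AT3G45710 was 1 of 3 cluster genes called lower in arf2-6 with IAA, against 5.86% of all tested probe sets. That call held in 21 of 21 other settings, with log2 differences from -1.58 to -1.37. The run was chosen with these levels known, so nothing is read from the counts or from how often a call held. In controls 0 of 3 cluster genes were called lower, against 0.507% of all tested probe sets. AT3G45710 was called there in 3 of 21 settings: with the filter that asks for at least 3 arrays above the lowest value (log2 difference -1.10), without WT_control 3 (-1.40), and without both WT_control 3 and arf2-6_control 2 (-1.31). WT_control 3 was the lowest of the WT arrays for this gene, at 8.17. The IAA contrast in WT and the genotype contrast in controls share the WT_control arrays, so their values for a gene are not separate measurements.

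The IAA differences of AT3G45710 were smaller than its genotype differences. In arf2-6 the 3 IAA arrays (6.79 to 7.20) lay below the 3 control arrays (7.48 to 7.84), with a log2 difference of -0.60 (SE 0.24) that was not called and was -0.68 without both control arrays that stood apart. In WT the IAA arrays (8.44 to 8.78) lay inside the range of the controls (8.17 to 9.31), with a log2 difference of -0.19 (SE 0.24). That WT difference depended on single arrays: it was -0.49 without WT_control 3, and so also without both arrays that stood apart, and 0.08 without WT_control 2. The order of the group means was WT_control, WT_IAA, arf2-6_control and arf2-6_IAA. Only the first 2 neighbours in that order overlap. The difference between the IAA effects (arf2-6 minus WT) was -0.40 (SE 0.34), with -0.19 without both control arrays that stood apart, -0.11 without WT_control 3 alone and -0.68 without WT_control 2. For this difference 0 of 3 cluster genes were called lower, against 0.0985% of all tested probe sets. Across all 5 contrasts 0 of 3 cluster genes were called higher, against 0.0141% to 4.64% of all tested probe sets, depending on the contrast.

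AT3G45680, the stele nitrate transporter, was at the lowest value on all 6 IAA arrays. In arf2-6_control it gave 5.64, 5.72 and 5.75, and in WT_control 5.67, 6.25 and 5.64. Only WT_control 2 stood clear of the lowest value, and that array was also the highest for AT3G45700 and for AT3G45710. The log2 difference with IAA was -0.06 in arf2-6 and -0.21 in WT (SE 0.13 each), and that between the genotypes in controls was -0.15 (SE 0.13). Without both control arrays that stood apart these were -0.05, -0.32 and -0.26, and without WT_control 2 the genotype difference of AT3G45680 turned to 0.05. None was called, and each rests on few measured arrays. The SE is pooled with the 6 IAA arrays at the lowest value, while the SD in WT_control was 0.34.

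Array by array, the cluster genes shared part of their scatter. Over 12 arrays AT3G45700 and AT3G45710 had a Pearson r of 0.504, and after each group mean was removed the r was 0.816. On the 6 control arrays, where both are measured, the deviations had an r of 0.893, and on the 10 arrays without WT_control 3 and arf2-6_control 2 the r was 0.626. WT_control 2 was the highest and WT_control 3 the lowest of their group for both genes. For AT3G45680 the r of deviations was 0.751 with AT3G45700 and 0.736 with AT3G45710. These are descriptions over arrays that share labelling and scaling, and for AT3G45680 they rest mainly on WT_control 2. Those of AT3G45700 rest mainly on the control arrays, since it was at or near the lowest value on every IAA array. The r of 0.626 rests on fewer control arrays still.

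No measured gene next to the run on the chromosome was called. AT3G45670, which lies inside the run, and AT3G45730 and AT3G45750, which lie after it, gave the lowest value throughout. AT3G45620, AT3G45630 and AT3G45740 were measured, and none of the 3 was called by limma in any of the 5 contrasts. The largest difference among them was that of AT3G45630 with IAA, at 6.84 ± 0.14 in arf2-6_IAA and 6.35 ± 0.18 in WT_IAA (SD, n = 3 each), a log2 difference of 0.49 (SE 0.17, adjusted p = 0.0951) in the direction opposite to AT3G45710. The order of genes was read from a gene table of assembly TAIR10.1.

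**Figure D2:**
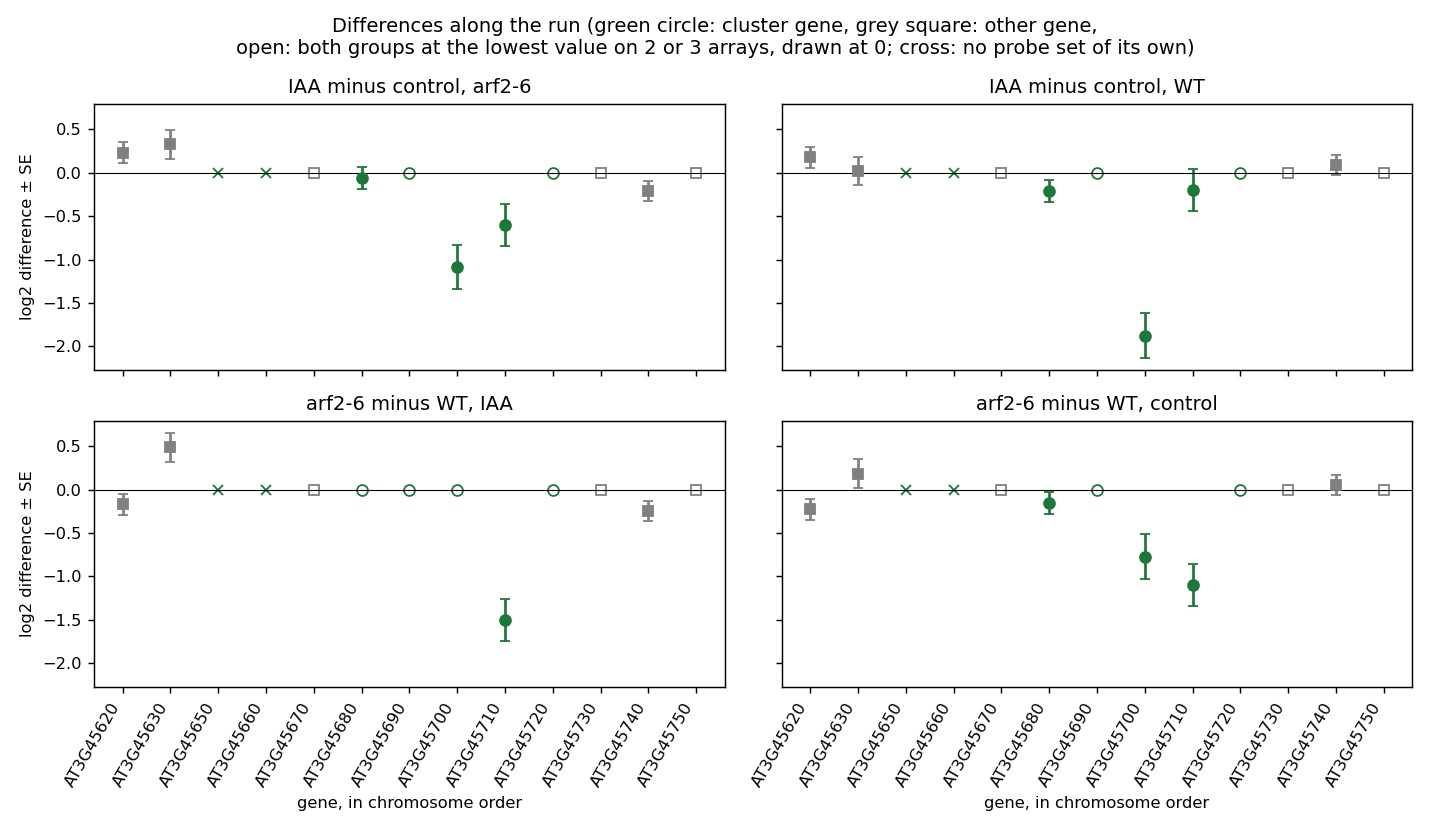
Log2 differences with SE (vertical axis) for the cluster genes (green circles) and neighbouring genes with a probe set (grey squares) in chromosome order (horizontal axis), for IAA minus control in each genotype and arf2-6 minus WT in each treatment. AT3G45700 stands below 0 in both IAA panels (-1.09 and -1.88) and AT3G45710 in both genotype panels (-1.50 and -1.10). Open symbols at 0 mark genes with no difference drawn because both groups were at the lowest value on 2 or 3 arrays. Crosses mark cluster genes without a probe set of their own.

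The other members of the NPF family show how these differences sit among related transporters. Outside the run, 46 NPF genes were listed, of which 29 had a single-gene probe set and 13 were above the lowest value on some array and tested. With IAA in arf2-6, 1 of 13 rose, where 3.75% of all tested probe sets did, and 4 fell, where 4.76% did. With IAA in WT, 1 of 13 rose, where 4.64% of all tested probe sets did, and 5 fell, where 3.76% did. The median log2 difference of the 13 was -0.45 in arf2-6 and -0.27 in WT, against -0.02 and 0.00 over all tested probe sets.

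AT3G21670, an NPF gene of another subfamily known as a nitrate transporter gene, had the largest fall among the 13 in both genotypes. It gave 5.64 on all 3 arf2-6_IAA arrays, against 7.14, 7.19 and 6.99 in arf2-6_control, and 5.77, 5.95 and 5.89 in WT_IAA, against 7.12, 6.79 and 7.40 in WT_control. No IAA array reached a control array in either genotype. It fell at least 2.75-fold in arf2-6 (log2 difference -1.46, SE 0.13, limma adjusted p = 4.13e-05) and 2.35-fold in WT (-1.24, SE 0.13, adjusted p = 0.000118). The genotypes had nearly equal means in controls (log2 difference 0.00, SE 0.13).

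AT1G59740, an NPF gene with no role given here, was the 1 that rose. It gave 8.45, 8.64 and 8.35 in arf2-6_IAA, against 5.90, 6.49 and 6.18 in arf2-6_control, and 8.27, 7.73 and 8.20 in WT_IAA, against 6.14, 6.15 and 6.53 in WT_control. The groups did not overlap. The limma log2 difference was 2.29 in arf2-6 (SE 0.19, adjusted p = 2.06e-05) and 1.79 in WT (SE 0.19, adjusted p = 0.000106).

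GTR1 and GTR2, transporters of the defence compounds glucosinolates, are the only members of the NPF2 subfamily outside the run that were tested, and NPF2 is the subfamily of the run itself. GTR2 gave 8.22, 8.09 and 8.21 in arf2-6_IAA, against 8.77, 8.50 and 8.70 in arf2-6_control, and fell by 0.49 on the log2 scale (SE 0.10, limma adjusted p = 0.008). In WT it gave 8.51, 8.56 and 8.59 in WT_IAA, against 8.96, 9.16 and 9.19 in WT_control, and fell by 0.55 (SE 0.10, adjusted p = 0.00335). Its level with IAA was also lower in arf2-6 than in WT (log2 difference -0.38, SE 0.10, adjusted p = 0.0334), a call that was lost without any single IAA array (adjusted p from 0.063 to 0.111).

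GTR1 fell with IAA in WT, by 0.74 on the log2 scale (SE 0.18, limma adjusted p = 0.0236), and had a log2 difference of -0.47 (adjusted p = 0.156) in arf2-6. Its WT call was lost without WT_IAA 2 (adjusted p = 0.11), WT_IAA 3 (0.0897), WT_control 2 (0.0731) or WT_control 3 (0.05), without both control arrays that stood apart (0.0657), with no filter on dim probe sets (0.0737) and with only the groups compared in the fit (0.173). AT1G22550, of another NPF subfamily, fell in both genotypes, with log2 differences of -0.94 in arf2-6 (adjusted p = 0.00123) and -0.71 in WT (adjusted p = 0.00671). The WT call of AT1G22550 was lost with only the groups compared in the fit (adjusted p = 0.0646). AT1G22570, named after its values were seen, fell too, with log2 differences of -0.56 in arf2-6 (adjusted p = 0.0131) and -0.48 in WT (adjusted p = 0.0294), and the WT call was lost without any single array of WT_IAA, WT_control 1 or WT_control 3 (adjusted p from 0.0745 to 0.0903). The WT call of AT1G22570 was also lost without both control arrays that stood apart (0.0894) and with only the groups compared (0.0675). Its arf2-6 call was lost without arf2-6_IAA 3 (adjusted p = 0.0516) and with only the groups compared (0.0662).

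Between the genotypes with IAA, 1 of the 13 relatives was called higher and 1, GTR2, lower, where 2.93% of all tested probe sets were called higher and 5.86% lower. AT2G26690 was the higher one in arf2-6. It gave 9.22, 9.20 and 9.32 in arf2-6_IAA, against 8.68, 8.45 and 8.34 in WT_IAA, a limma log2 difference of 0.75 (SE 0.12, adjusted p = 0.00518). The direction is opposite to that of AT3G45710. In controls AT1G72140, also named after its values were seen, stayed at the lowest value in each of the 3 arf2-6 arrays, against 6.09, 6.53 and 6.19 in WT_control. It was at least 1.55-fold lower (log2 difference -0.63, SE 0.12, adjusted p = 0.0378), a call lost in 12 of the other settings, 8 of which leave out 1 array (adjusted p from 0.0558 to 0.261 over the 12). None of the 13 was called for the difference between the IAA effects.

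**Figure D3:**
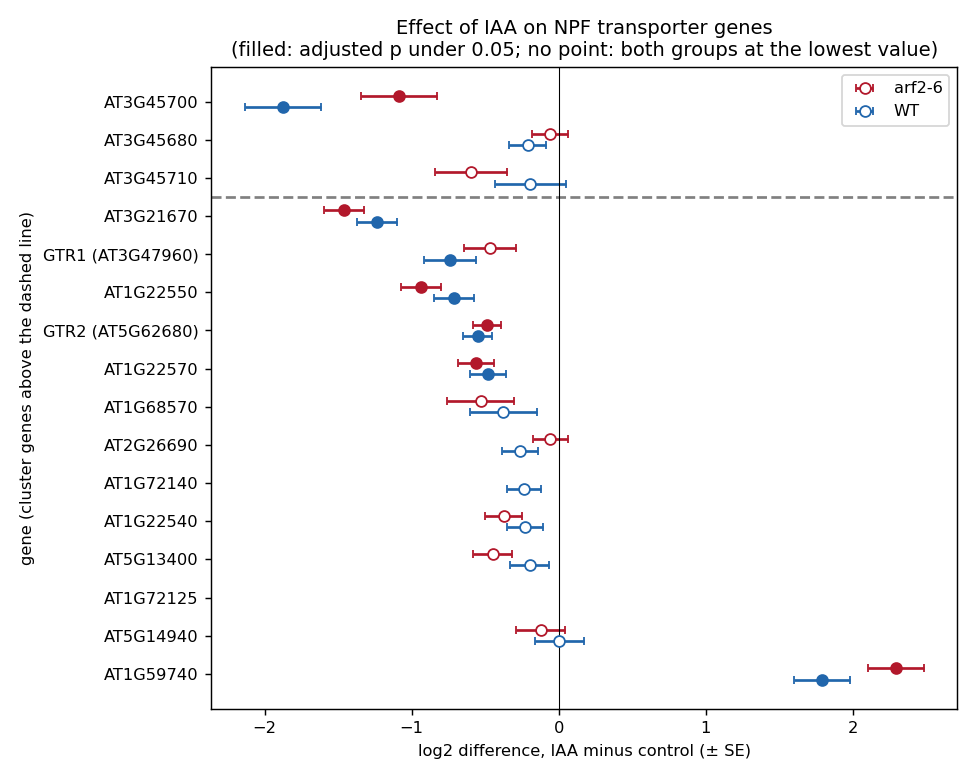
Log2 difference between IAA and control (horizontal axis, ± SE) for the 3 tested cluster genes, above the dashed line, and 13 other NPF genes, in arf2-6 (red) and WT (blue). Filled points have an adjusted p under 0.05, and no point is drawn where both groups were at the lowest value on 2 or 3 arrays. For the cluster genes the fill is a description only, since the run was chosen by these contrasts. AT3G45700 (-1.09 in arf2-6, -1.88 in WT) and AT3G21670 (-1.46, -1.24) lie farthest to the left, and AT1G59740 (2.29, 1.79) farthest to the right.

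Other genes of nitrate handling were mostly out of reach. Of 9 high-affinity uptake genes 1 had a single-gene probe set (NRT2.5, which stayed at the lowest value), and of 16 nitrate signalling genes 1 did (AT3G25790, also not tested). None did of the 19 assimilation genes, the 13 anion channels and exchangers, the 11 plasma membrane proton pumps, the 5 ammonium transporters and the 5 genes of xylem loading and salt.

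The 2 measured root hair markers moved with AT3G45710 between the genotypes. The root hair genes EXPA7 and EXPA18, expansins that loosen the walls of growing hairs, had a summed signal of 116 to 141 in arf2-6_IAA and 264 to 424 in WT_IAA. In controls the sum ran from 152 to 199 in arf2-6_control and from 219 to 365 in WT_control. Neither treatment showed an overlap between genotypes. With IAA both were lower in arf2-6 by limma, EXPA7 with a log2 difference of -0.96 (SE 0.21, adjusted p = 0.0182) and EXPA18 with -1.54 (SE 0.25, adjusted p = 0.00551), where EXPA18 was at the lowest value on 1 arf2-6_IAA array. In controls the differences were -0.66 (adjusted p = 0.154) and -0.90 (adjusted p = 0.12), and both passed without WT_control 3 (adjusted p = 0.0442 and 0.0387). Without both control arrays that stood apart, EXPA18 passed (adjusted p = 0.043) and EXPA7 did not. The EXPA7 call with IAA was lost without WT_IAA 2 (0.0854) and without any single arf2-6_IAA array (adjusted p from 0.0502 to 0.0768), as well as with no filter on dim probe sets (0.0593), and both calls were lost with the lowest signal raised to 100 (0.0848 and 0.0752).

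The cortex markers, of the tissue to which AT3G45710 is known to belong, did not part the genotypes. Their summed signal, mostly that of AT1G09750, ran from 1774 to 1883 in arf2-6_IAA and from 1151 to 2081 in WT_IAA. In controls it ran from 2176 to 2516 in arf2-6_control and from 1670 to 2790 in WT_control. AT1G62500 and AT1G09750 each overlapped between the genotypes in both treatments. The leaf markers RCA, LHCB4.1 and LHCB4.2 summed to 15569 to 16038 in arf2-6_IAA and 14533 to 15363 in WT_IAA, and to 14114 to 16010 in arf2-6_control and 13331 to 16091 in WT_control. None of these 5 genes was called in any contrast of the main fit. Of 9 reference genes 4 were tested and none was called, the nearest being AT4G34270 with IAA, with a log2 difference of -0.34 between arf2-6 and WT (adjusted p = 0.0648). The part of the root hair markers in the AT3G45710 result was not tested.

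**Figure D4:**
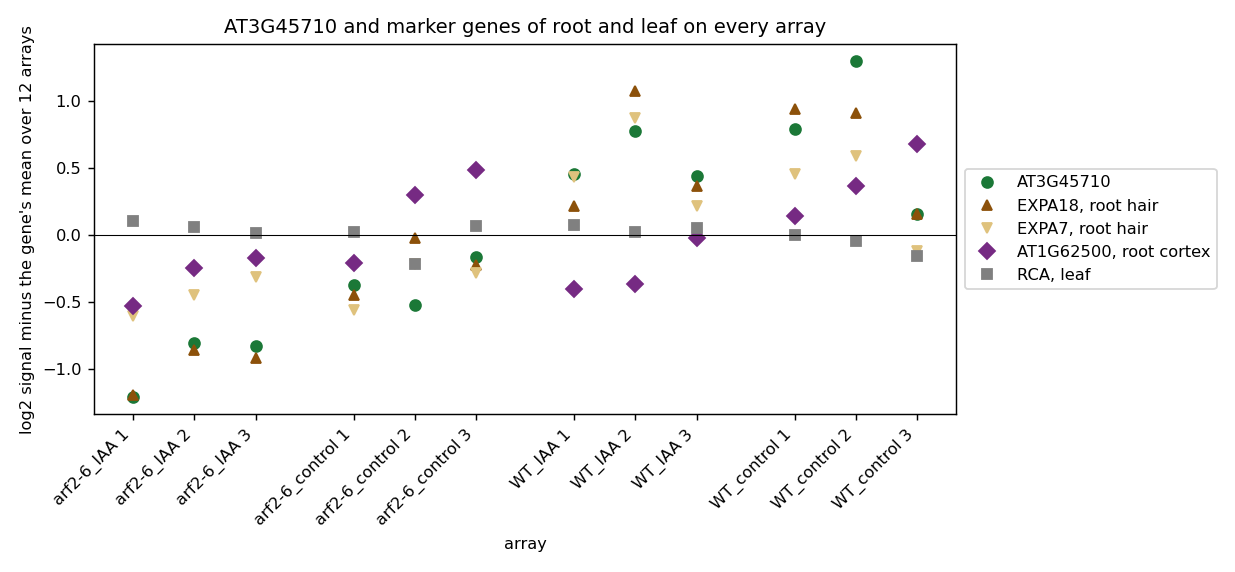
Log2 signal minus the gene's own mean over 12 arrays (vertical axis) for AT3G45710, the root hair genes EXPA18 and EXPA7, the root cortex gene AT1G62500 and the leaf gene RCA on each array (horizontal axis). AT3G45710 and both root hair genes lie below 0 on the arf2-6_IAA arrays and above it on the WT_IAA arrays, while RCA stays near 0 throughout.

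Single-gene probe sets most like each cluster gene were ranked by Pearson r over the 12 arrays, among 7634 tested. Nearest to AT3G45700 were ALN (r = 0.977), which encodes allantoinase of ureide breakdown, AT5G20885 (0.965), a RING-type protein gene, and AT4G25250 (0.962), a pectin methylesterase inhibitor gene. ALN had means of 5.66 in arf2-6_IAA and 6.03 in arf2-6_control, and of 5.65 in WT_IAA and 6.31 in WT_control. AT4G25250 was at the lowest value on all 6 IAA arrays, against 6.86 in arf2-6_control and 7.65 in WT_control. ALN was at the lowest value on 2 of 3 arrays in each IAA group. The likeness of ALN and AT4G25250 to AT3G45700 thus rests partly on IAA arrays at or near the lowest value. AT5G20885 was above the lowest value on every array.

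Nearest to AT3G45710 were AT4G26010 (r = 0.973), a class III peroxidase gene, AT4G29270 (0.973), an acid phosphatase gene, and AT5G38030 (0.971), a MATE efflux carrier gene. AT5G38030 averaged 5.91 in arf2-6_IAA and 7.69 in WT_IAA, and 6.44 in arf2-6_control and 7.65 in WT_control, with 1 arf2-6_IAA array at the lowest value. AT4G26010 averaged 8.64 in arf2-6_IAA and 9.83 in WT_IAA, and 9.17 in arf2-6_control and 10.0 in WT_control. Those nearest to AT3G45680 (AT1G66810, AT5G24980 and AT5G19100, r = 0.980 each) left the lowest value in WT_control only, and the likeness rests on 1 or 2 arrays.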

How the data were processed

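The authors deposited a log2 signal for each of 22810 probe sets on each of 12 arrays. The summary and scaling steps before deposition are not stated in the sources used here. Signals stop at 50, and folds against groups at that value are lower bounds. Left out were 64 AFFX controls and, by mean over all arrays, the lowest 30% of the rest with ties, which removed the 8531 at the lowest value on every array and left 14215.

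Groups and replicate numbers were read from labels. A single linear model of the 4 group means was fitted with limma 3.58.1 in R 4.3.3 for 5 contrasts. It had 8 residual degrees of freedom and a mean-variance trend. Tests were two-sided with Benjamini-Hochberg adjustment, called at adjusted p under 0.05. The fit was also run on simulated data, with limits set for recovered rises and false calls but none for recovered falls. Each SE is that of the limma fit, which pools the spread of all groups, so groups at the lowest value can make it smaller. Summaries used Python 3.11.15. Gene names came from the platform annotation, with 13436 of 13513 single-gene probe sets matched to a TAIR10.1 gene table. No gene sequence was used here.

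The cluster genes and the 14 lists (159 genes, 47 with a single-gene probe set, 29 tested) were chosen with earlier results of these data known. Named genes were the cluster genes, per list the 4 called genes of smallest p at most (or 1 gene where none was called), neighbours within 5 genes of the run, and the 3 probe sets most like each cluster gene. Alternatives changed the filter, scaling, floor, variance trend, samples in the fit, pairing, and left out arrays.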

Additional observations from a re-analysis of the deposited data

How the results depend on the processing

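The counts of called probe sets were 1210 for IAA in arf2-6 seedlings, 1194 for IAA in WT seedlings, 122 for the genotype in controls, 1249 for genotype with IAA and 16 for the difference between IAA effects. Fitting only the groups compared gave 622 for IAA in WT and 2 for genotype in controls. Without the filter the genotype counts were 30 in controls and 648 with IAA, and with at least 3 arrays above the lowest value they gave 192 in controls and 5 for the difference between effects. That last count was 3 with median centring (2 higher and 1 lower, against 2 and 14), 27 with the lowest signal raised to 100 and 8 without the variance trend. Without WT_control 3 and arf2-6_control 2 the counts were 559 for genotype in controls, 1998 with IAA and 6 for the difference between effects. Leaving out each array in turn gave 756 (without arf2-6_IAA 3) to 1343 for IAA in arf2-6 seedlings, 23 to 477 for the genotype in controls, 325 to 1536 for genotype with IAA and 2 to 46 for the difference between effects. The cause of these changes was not tested. Replicate numbers did not pair the samples throughout: of 18 same-numbered pairs 7 correlated above 0.1 (r from -0.497 to 0.488). Between IAA and control arrays of the same genotype, same-numbered pairs had r of 0.287, 0.033 and 0.298 in arf2-6. In WT they had -0.081, 0.315 and 0.488. Other-numbered pairs of this kind ran from -0.534 to 0.327, so pairing inside a genotype is not settled. The replicate block gave 1192, 1181, 235, 1199 and 6 calls in the order above. Under the replicate block the root cortex marker AT1G62500 was called lower with IAA in arf2-6 (adjusted p = 0.0249) and in WT (0.00609), and the IAA calls in WT of GTR1 (0.05) and AT1G22570 (0.0551) were lost. Over 2382 values of named genes under the alternatives, without the probe sets most like a cluster gene, 0 called differences changed sign. Among the genes outside the cluster, 51 values lost and 18 gained a call. The cluster genes are not in those last counts. AT3G45700 kept its IAA call in arf2-6 in 14 of 21 alternatives, and AT3G45710 was called for genotype in controls in 3 of 21. Floored values limit what can be measured of AT3G45680 and AT3G45700.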

Other observations

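The probe set listed with both NAXT1 and AT3G45660 cannot be given to either gene, and its values are reported here for the pair. It gave log2 signals of 6.02, 6.63 and 6.06 in arf2-6_IAA, against 6.76, 7.17 and 6.76 in WT_IAA. In controls it gave 6.77, 6.51 and 6.76 in arf2-6_control, against 7.29, 7.32 and 6.64 in WT_control. With IAA the genotypes did not overlap, and in controls they did, through WT_control 3. The log2 difference between arf2-6 and WT was -0.66 with IAA and -0.40 in controls, and that between IAA and control was -0.44 in arf2-6 and -0.19 in WT (SE 0.22 each), none of them called. Over the 12 arrays its signals had a Pearson r of 0.897 with those of AT3G45710, and of 0.798 after group means were removed, as a description of arrays that share labelling and scaling.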
